A study of Drosophila melanogaster with 5 samples.

Results

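The immune peptide genes described here are the fly's own antimicrobial and immune-induced peptide genes, read in the eye-antennal discs of Drosophila melanogaster larvae and in tumors of that tissue. They were taken by name, and a gene counted as measured where a probe set of the array named it and no other gene. Of the 10 genes Drs, Mtk, Drsl5, AttA, AttC, AttD, CecC, Def, Dro and IM33, 6 were measured, out of 11981 measured genes in all: Drs, Mtk, Drsl5, AttD, Def and IM33. AttA, AttC, CecC and Dro had no named probe set in the tables used and were not analysed here. Each measured member had 1 probe set, so no second reading of the same gene was at hand.

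Total RNA came from the eye-antennal imaginal discs of third-instar larvae, epithelial sacs from which the eyes, antennae and head capsule of the adult develop. GFP marked the clones, which were induced by MARCM, a technique that generates labelled homozygous cells in an otherwise unlabelled animal. There were 5 groups of 1 array each: Sras mutant 1 and Sras mutant 2, each as tumors that also overexpress Ras, the scrib mutant, likewise with overexpressed Ras and named as the positive control in the design, Ras, which are tumors with Ras overexpression and no further mutation named, and WT control, which are discs labelled 79E control. The 4 tumor groups thus share Ras overexpression. The sources used here do not give the alleles, the Ras transgene and its driver, or whether GFP cells were separated from their surroundings and animals pooled. By its title, the study is about the Fanconi anemia pathway of DNA repair and the senescence that oncogenes can induce.

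Flies kill microbes in part with small secreted peptides. The fat body, which does the work of a liver, releases most of them into the hemolymph after infection, while epithelia such as the trachea, gut and salivary gland make some of them locally. The Toll pathway, opened by a protease cascade that cleaves the ligand Spätzle, and the Imd pathway, opened by peptidoglycan receptors, control these genes through the NF-kB factors Dorsal, Dif and Relish. Drosomycin transcript is the usual readout of Toll. In flies, disc tumors have also been described to switch on Toll signalling in the fat body at a distance.

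Each group has a single array, without replicates. No difference could be tested, and each one sets a single array against another rather than a condition against another. All levels are log2 values after quantile normalization, which gives the 5 arrays the same distribution, and all differences are in log2 units, where 1 is 2-fold. As a guide to the spread, the closest pair of arrays, Sras mutant 1 and Sras mutant 2, differed with an SD of 0.243 over 7850 genes. For genes at levels of 5 to 6, 6 to 7 and 7 to 8, where most members lay, that SD was 0.291, 0.319 and 0.329. It includes any difference between the mutants and is not a replicate error. Genes were kept for comparison where at least 1 array reached 6.36, the 40th percentile over all genes and arrays, and levels under this filter value were taken as dim. Of the 6 measured members 5 were kept, and AttD was dim on all arrays. Mtk and Def reached the filter value on the scrib array alone, so they were kept only through the array on which they were highest. Counts and medians over the kept members therefore describe these genes without supporting a direction for the group.

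The arrays differed in other larval tissue before any immune gene is considered. Salivary gland markers had a mean level of 7.02 in Sras mutant 1, 8.60 in Sras mutant 2 and 6.58 in scrib, against 13.57 in Ras and 13.53 in WT control, over 10 of 10 genes. Fat body markers, 6 of 10 measured, averaged 9.02, 10.14 and 8.73 in the same mutant arrays, against 11.53 in Ras and 11.52 in WT control. Larval gut markers (7 of 10 measured) averaged 6.10, 6.14 and 5.81 in the mutant arrays in that order, against 8.16 in Ras and 7.38 in WT control. Larval muscle markers (6 of 10) ran from 6.48 to 7.29 in the mutant arrays, against 10.84 in Ras and 10.57 in WT control. Plasmatocyte markers (10 of 10), which mark the phagocytic blood cells, ran from 8.13 to 8.35 in the mutant arrays, against 8.45 in Ras and 9.06 in WT control. Crystal cell markers (4 of 4) averaged 9.32, 8.63 and 7.43 in the mutant arrays, against 8.90 in Ras and 9.91 in WT control. These 4 markers include lz and peb, which the eye disc also expresses. Lamellocyte markers (4 of 4), which mark the blood cells that wrap foreign bodies, averaged 8.32, 8.59 and 7.71 in the mutant arrays, against 7.31 in Ras and 7.20 in WT control. These markers did not move together. In the Sras arrays ItgaPS4 (2.74 and 3.45) and Tig (1.76 and 2.15) were above Ras, but atilla was below it (−0.94 and −1.15). ItgaPS4 was dim in Ras, at 5.23, and PPO3 was dim on all arrays. Trachea markers (5 of 6) stayed between 10.86 and 11.22 on all 5 arrays. Markers of the labelled tissue were read on every array, with 16 of 16 measured eye-antennal disc markers above the filter value. Their mean levels were 9.80, 9.79 and 8.20 in the mutant arrays, against 8.97 in Ras and 8.89 in WT control. The scrib mean hides a split. There 8 of the 16 were at least 2-fold below Ras (background 14.2%) and 4 above it (background 9.26%). On the scrib array eya (6.66), so (6.59) and gl (6.54) lay just above the filter value. Among control probes the Ras array was the exception, with a mean gap of 1.35 between probe sets at the 3′ end and at the 5′ end of 3 housekeeping transcripts, against 0.88 to 0.95 on the other arrays. In bulk RNA, fewer cells of a type and less RNA per cell cannot be told apart.

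**Figure D1:**
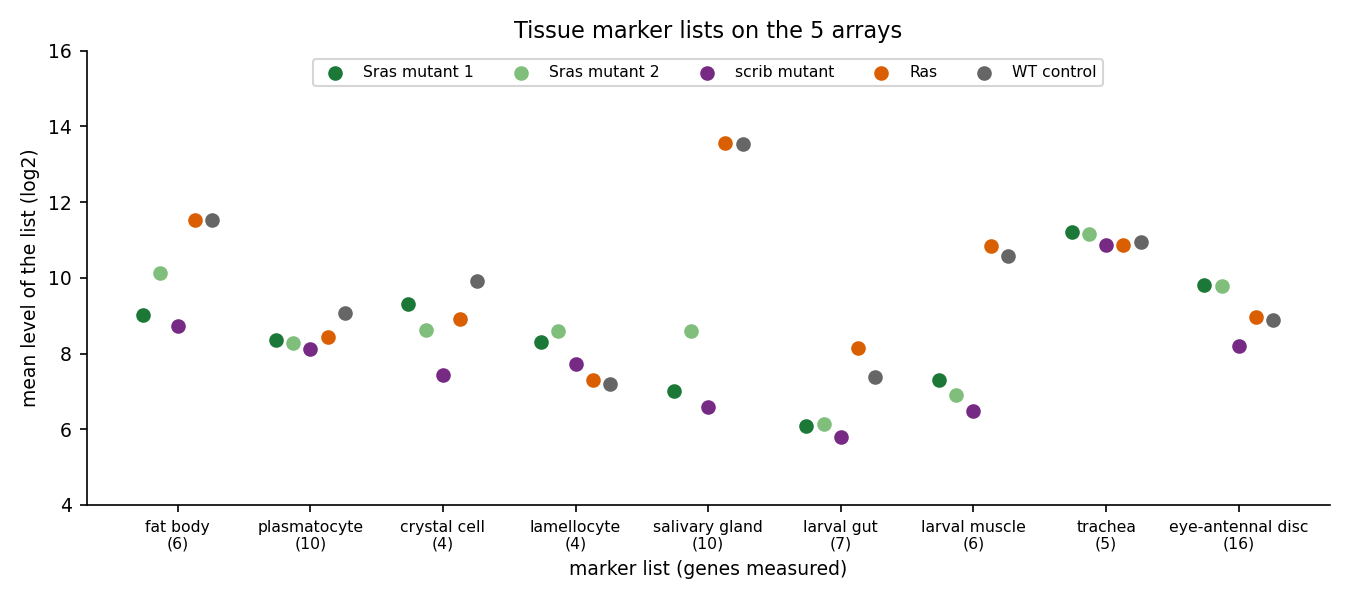
Mean log2 level of each marker list on each of the 5 arrays (1 point per array; the number of measured genes stands under each list). Salivary gland, gut, muscle and fat body lists were lower on the 3 mutant arrays than on the Ras and WT control arrays, while the trachea list was nearly level.

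The members showed a pair of patterns. Drs, Mtk and Def were highest in the scrib tumors, and Drs was lowest in the Sras tumors. The scrib array held the highest value for 3 of 6 measured members (50%), and for 35.6% of all 11981 measured genes. Nothing particular to the members is therefore read from that count. Drsl5 and IM33 were highest in the WT control and Ras arrays and lower in all 3 mutant arrays. So were the salivary gland, gut, muscle and fat body lists. The plasmatocyte list was too, narrowly against Ras (8.13 to 8.35, against 8.45 in Ras and 9.06 in WT control). The trachea, lamellocyte and crystal cell lists were not.

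Drs encodes drosomycin, an antifungal peptide. It read 5.96 in Sras mutant 1, 6.47 in Sras mutant 2 and 9.09 in scrib, against 7.35 in Ras and 8.25 in WT control. The scrib array was thus the highest, Sras mutant 2 lay just above the filter value and Sras mutant 1 under it. Subtracting the Ras value gave −1.39 for Sras mutant 1, −0.88 for Sras mutant 2 and 1.74 for scrib. The scrib difference stood at rank 205 from the highest of 7850 genes, and 3.34-fold in linear terms. Against WT control the differences were −2.29, −1.78 and 0.84 in the same order. Neighbours in the order of the 5 arrays were 0.52 to 0.90 apart, more than the spread between the Sras arrays at these levels, although the gap of 0.52 is the Sras pair itself, with mutant 2 the higher.

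Mtk encodes metchnikowin, a proline-rich peptide active against fungi and bacteria. Its levels were 5.25 in Sras mutant 1, 5.29 in Sras mutant 2 and 7.72 in scrib, against 6.29 in Ras and 5.98 in WT control. Only the scrib value cleared the filter value, and the order of the other 4 arrays is therefore not informative. The difference from Ras was 1.43 in scrib, and at least 2.57-fold if the dim Ras value is raised to the filter value. In the Sras arrays it was −1.04 and −0.99, between dim values on both sides.

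Def encodes defensin, a peptide directed mainly at Gram-positive bacteria. It read 6.15 and 5.92 in Sras mutants 1 and 2 and 7.30 in scrib, against 5.99 in Ras and 6.18 in WT control. The scrib array stood 1.12 above the next. Among the other 4 arrays the widest difference was −0.27, for Sras mutant 2 minus WT control, which is less than the spread of 0.319. The scrib minus Ras difference was 1.31, or at least 1.92-fold with the Ras value at the filter value, so its call as 2-fold rests on a dim reading. As deposited, before quantile normalization, Def read 6.97 in scrib and 6.04 in Ras, a gap of 0.93.

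**Figure D2:**
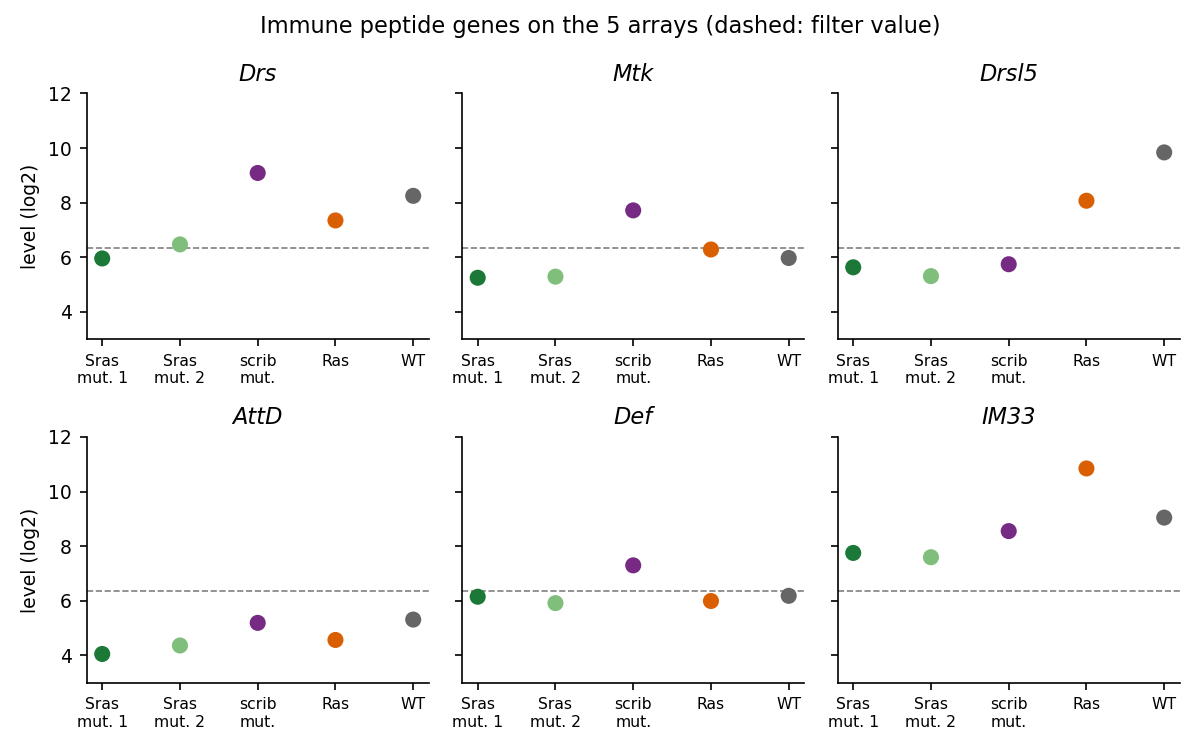
Log2 level of each measured member on the 5 arrays (1 point per array; the dashed line is the filter value of 6.36). Drs, Mtk and Def were highest in scrib, Drsl5 was highest in WT control, IM33 in Ras, and AttD was under the line on all arrays.

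Markers of tissues known to make these peptides, and of blood cells, differed between scrib and Ras as well. Fat body markers had a lower mean in scrib than on any other array (8.73, against 11.53 in Ras), with 4 of 6 genes at least 2-fold below Ras and a median difference of −2.93. The plasmatocyte list had a median of −0.49 from Ras in scrib, and 0 of its 10 genes were at least 2-fold higher. The trachea list had a median of 0.28, and 1 of its 5 genes was at least 2-fold higher and 1 at least 2-fold lower. Medians of the salivary gland, gut and crystal cell lists were −7.78, −4.88 and −1.01. In the crystal cell list PPO1 was at −0.43 and PPO2 at −0.49. The lower genes were lz (−1.53) and peb (−3.44), which the eye disc also expresses. Of the lamellocyte list 3 genes were kept, with atilla at −0.45, ItgaPS4 at −1.01 and Tig at 3.03. ItgaPS4 was dim in both scrib and Ras, so its difference is not informative. The part of these tissues in the scrib values of Drs, Mtk and Def was not tested.

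IM33 encodes a small secreted protein named as an immune-induced molecule of the hemolymph. It was above the filter value on all 5 arrays, the only member of which this held, and read 7.75 in Sras mutant 1, 7.60 in Sras mutant 2 and 8.55 in scrib, against 10.85 in Ras and 9.05 in WT control. The differences from Ras were −3.09 and −3.25 for the Sras mutants, or 8.54-fold and 9.52-fold lower, and −2.29 for scrib. Against WT control they were −1.29, −1.45 and −0.49, smaller in size than from Ras on each array. Ras exceeded WT control by 1.80, which put IM33 at rank 11 from the highest of 7850 genes in that comparison. The gut list had a median of 1.46 in Ras minus WT control over 4 kept genes, which did not move together. Of these yip7 (2.18), Jon65Aiii (1.97) and Jon65Aiv (0.96) were higher in Ras, and betaTry was not (−0.14). Fat body markers had a median of 0.05. The part of these tissues in the IM33 difference was not tested. Only the pair of Sras arrays was closer than the spread.

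Drsl5 encodes a drosomycin-like peptide. It read 5.64 in Sras mutant 1, 5.31 in Sras mutant 2 and 5.75 in scrib, against 8.07 in Ras and 9.84 in WT control. All 3 mutant arrays were dim, so their order is not informative and their folds are lower bounds. With dim values raised to the filter value, Drsl5 was at least 3.28-fold lower than in Ras and at least 11.2-fold lower than in WT control on each mutant array. Ras itself was 1.77 below WT control, at rank 20 from the lowest of 7850 genes. Salivary gland markers hardly separated Ras from WT control (median −0.09 over 10 genes) although they separated the mutants from both, and plasmatocyte markers had a median of −0.62 in Ras minus WT control. The crystal cell list was at a median of −1.11 there. Of its 4 genes 2 were at least 2-fold lower (background 1.36%), the prophenoloxidase genes PPO1 (−2.27) and PPO2 (−2.29). Their part in the Drsl5 differences was not tested.

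AttD encodes an attacin without the signal peptide of the secreted attacins. Its readings were 4.05 in Sras mutant 1, 4.37 in Sras mutant 2 and 5.19 in scrib, against 4.57 in Ras and 5.31 in WT control. All were dim, so no fold was drawn from them.

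By counts, Sras mutant 1 was at least 2-fold below Ras for 4 of 5 kept members, where 9.77% of all kept genes were, and at least 2-fold above it for 0, where 4.04% were. Of these 4, only Drsl5 and IM33 stayed 2-fold lower with dim values raised to the filter value. Mtk was dim on both arrays, and Drs was then at least 1.99-fold lower. For Sras mutant 2 the counts were 2 lower (background 9.95%) and 0 higher (background 4.96%). In mutant 2, Drs at −0.88 and Mtk at −0.99 were just short of 2-fold. The count in mutant 2 was 4 with the values as deposited, 3 after median centring and 2 with dim values raised, so the counts of 4 and 2 do not set the mutants apart. The scrib array had 3 members at least 2-fold above Ras (background 9.26%) and 2 below it (background 14.2%). These became 2 and 2 with the values as deposited, where Def was not 2-fold, 2 and 2 with dim values raised to the filter value, and 4 and 1 after centring each array on eye-antennal disc markers, a scaling that moved the median of all genes in scrib minus Ras to 1.51. Ras had 1 member above WT control (background 0.701%), IM33, and 1 below it (background 1.36%), Drsl5. The median over the 5 kept members was −1.39 in Sras mutant 1, −0.99 in Sras mutant 2 and 1.31 in scrib, against 0.11, 0.08 and 0.12 over all kept genes. These medians are the single values of Drs, Mtk and Def in that order. Drs was dim in Sras mutant 1, Mtk in Sras mutant 2 and Ras, and Def in Ras. Mtk and Def were kept through scrib alone, so the scrib counts and the medians support no direction for the group. The comparisons with Ras share the Ras array. No member that was 2-fold apart turned direction under the 3 other scalings tried, which were the deposited values, median centring and disc marker centring.

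With WT control in place of Ras, the counts were 3 lower and 0 higher in Sras mutant 1 (backgrounds 10.5% and 5.75%), and 3 lower and 0 higher in Sras mutant 2 (10.8% and 6.6%). In scrib, 2 were higher (Mtk and Def) and 1 lower (Drsl5), with backgrounds of 10.5% and 14.8%. Mtk and Def were dim in WT control and kept through scrib alone, so the count of higher members supports no direction. As deposited, after median centring or with dim values raised, the scrib counts were 1 and 1, and after centring on the disc markers 4 and 1. Drs in scrib was 0.84 above WT control and so not 2-fold.

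**Figure D3:**
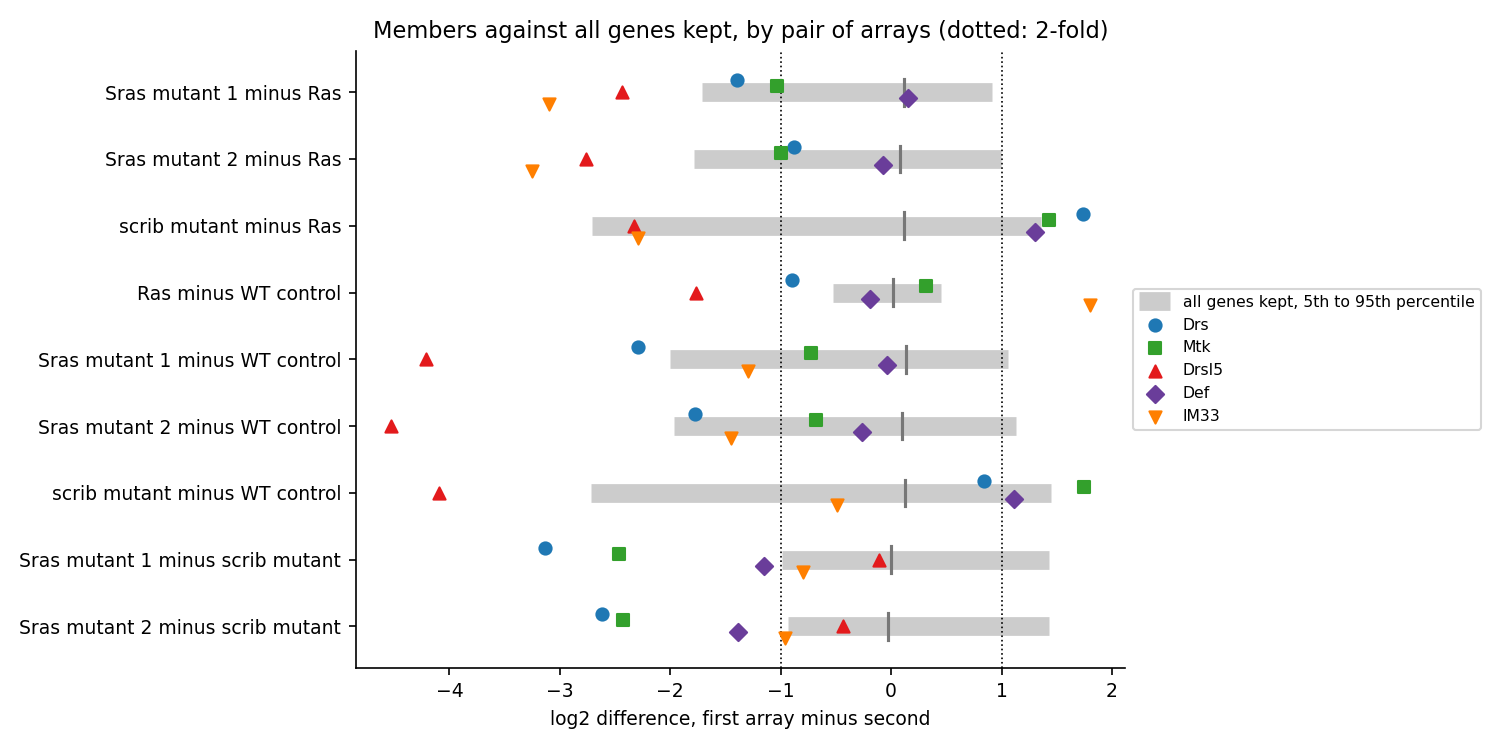
Log2 difference of each of the 5 kept members in 9 pairs of arrays, first array minus second (symbols), with the 5th to 95th percentile of all 7850 kept genes as a grey bar and their median as a tick; dotted lines mark 2-fold. Drs lay right of the grey bar in scrib minus Ras and left of it in both Sras minus scrib pairs, and Drsl5 lay left of it in every pair with WT control as the second array.

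The Sras and scrib tumors can be set against each other without the Ras or WT control arrays. Drs differed by −3.13 in Sras mutant 1 and −2.62 in Sras mutant 2 from scrib, at ranks 21 and 28 from the lowest of 7850 genes. In Sras mutant 1 it was at least 6.64-fold lower, with the dim value at the filter value, and in Sras mutant 2 it was 6.13-fold lower. Mtk differed by −2.47 and −2.43, at least 2.57-fold in both, and Def by −1.15 and −1.38. The Def difference was at least 1.92-fold with dim values at the filter value, and for Sras mutant 1 it was −0.84 as deposited and −0.91 after median centring. Both Sras arrays had 3 of 5 kept members at least 2-fold below scrib, where 4.85% and 4.28% of all kept genes were, and 0 above it, where 8.03% and 8.1% were. Of these 3, Mtk and Def were kept through scrib alone, so the count supports no direction for the group. With dim values raised, 2 members (Drs and Mtk) were lower in each, and Sras mutant 1 also had 2 as deposited and after median centring. IM33 was lower by less than 2-fold in both (−0.80 and −0.96), and Drsl5 was dim on all 3 arrays. Fat body markers averaged higher in the Sras arrays than in scrib (9.02 and 10.14, against 8.73). Between Sras mutant 1 and Sras mutant 2, 0 members were 2-fold apart in either direction (backgrounds 0.178% higher and 0.497% lower), and the largest gap was −0.52 for Drs.

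Drs and Drsl5 belong to the drosomycin family, whose 7 genes lie within a run of 15 neighbouring protein-coding genes in the RefSeq table of the Release 6 assembly. Despite this closeness the 4 kept family members had different patterns. Drsl2 was highest in Sras mutant 2, at 8.84, and read 7.31 in Sras mutant 1 and 7.08 in scrib, against 6.76 in Ras and 8.02 in WT control. Its gap of 1.53 between the Sras arrays is far above their SD of 0.329 at levels of 7 to 8 and 0.243 at levels of 8 to 9. Drsl4 ranged over only 0.50 across the arrays, from 6.67 in Ras to 7.16 in scrib. Drsl1, Drsl3 and Drsl6 were dim on all arrays. Near-identical family members can share probes, and cross-hybridisation between them was not tested.

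**Figure D4:**
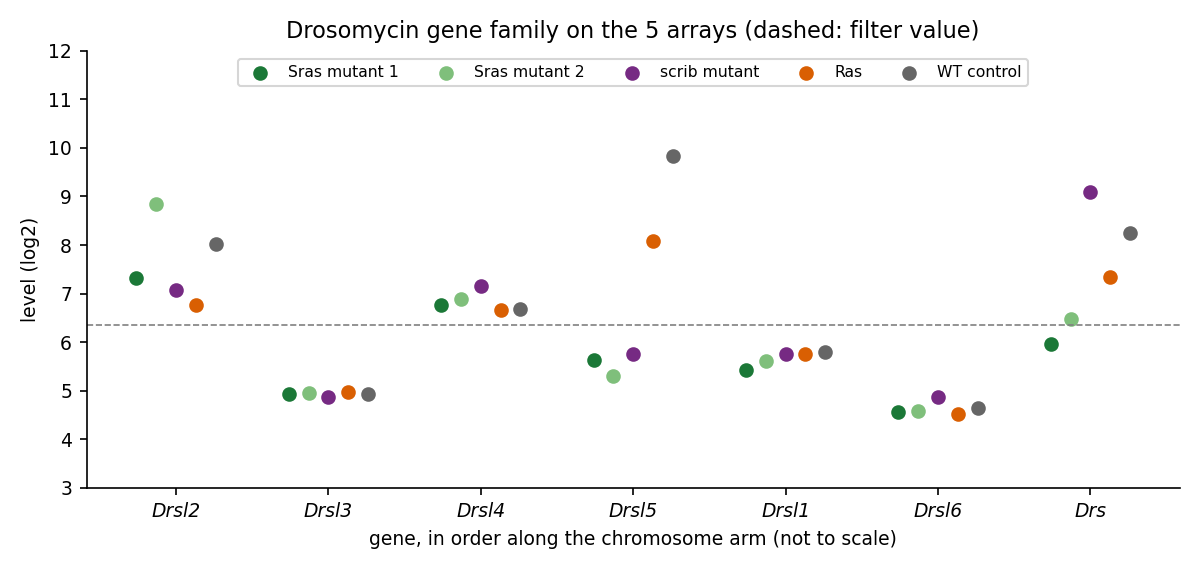
Log2 levels of the 7 drosomycin family genes on the 5 arrays, in their order along the chromosome arm (not to scale; the dashed line is the filter value). Drs was highest in scrib, Drsl5 in WT control and Drsl2 in Sras mutant 2, while Drsl1, Drsl3 and Drsl6 stayed under the line.

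Other peptide genes were mostly dim. Of 15 further antimicrobial peptide genes 9 were measured and 5 kept, and of 25 further induced peptide genes 13 were measured and 1 kept. Listericin, an antibacterial peptide gene known to respond to JAK/STAT signalling, read 4.81 in Sras mutant 1, 4.84 in Sras mutant 2 and 5.66 in scrib, against 9.86 in Ras and 9.23 in WT control. It was dim on the 3 mutant arrays, like Drsl5. BomS6, a bomanin gene (bomanins are short peptides induced by Toll), read 3.81, 4.04 and 6.87 in the same mutant arrays, against 5.27 in Ras and 4.06 in WT control, and only its scrib value cleared the filter value. DptB, which encodes a diptericin and is a common Imd readout, read 5.80, 6.12 and 7.06, against 6.46 in Ras and 7.0 in WT control. CecB, a cecropin gene, read 6.29, 6.44 and 6.93, against 6.35 in Ras and 6.39 in WT control. Scrib minus Ras was 0.59 for DptB and 0.58 for CecB, under 2-fold.

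The shares of all kept genes past 2-fold given above are the background for the lists that follow, and nothing particular to a list is read from its count. The Toll pathway list held 20 measured genes, all kept. In Sras mutant 1 and in Sras mutant 2, 2 were at least 2-fold above Ras (backgrounds 4.04% and 4.96%) and 1 below (backgrounds 9.77% and 9.95%), with list medians of 0.28 and 0.29 (−0.90 and −0.91 after centring on eye-antennal disc markers, which also moved the median of all genes to −1.09 and −1.07). The genes above were psh (1.59 and 1.75), a protease that cleaves upstream of Spätzle when it senses foreign proteases, and dl (1.33 and 1.5), the NF-kB factor Dorsal. The gene below was spirit (−1.52 and −1.32), a protease of the same cascade. Next came cact (0.67 and 0.74), the inhibitor that holds Dorsal and Dif in the cytoplasm, and, on the low side, grass (−0.68 and −0.56), another protease, and the receptor gene Tl (−0.55 and −0.57). Scrib also had 2 genes at least 2-fold above Ras (background 9.26%) and 1 below (background 14.2%), with a median of 0.06. There dl was at 1.44, nec, a serpin that restrains the cascade, at 1.34, spirit at −1.96 and the ligand gene spz at −0.93. spz was at 0.36 and 0.79 in the Sras arrays.

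The Imd pathway list had 15 kept genes and smaller differences. Its medians from Ras were 0.12 and 0.09 for the Sras arrays and 0.25 for scrib, and −1.02, −1.03 and 1.60 after the same centring, when the median of all genes in scrib was 1.51. Sras mutant 1 had 0 genes 2-fold apart from Ras, Sras mutant 2 had 1 higher and 0 lower, and scrib had 1 higher and 1 lower. POSH, a ubiquitin ligase that acts on the kinase Tak1, was the higher gene in both, at 0.91 in Sras mutant 1, 1.08 in Sras mutant 2 and 1.39 in scrib. PGRP-LA, a peptidoglycan recognition gene, was at −0.55, −0.72 and −1.07. Fadd, an adaptor of the Imd complex, was at −0.06 and −0.11 for the Sras mutants and 0.82 for scrib. Rel, the NF-kB factor Relish, was at 0.15, 0.28 and 0.42. Among 12 kept negative regulators of Imd, the list medians ran 0.16, 0.20 and 0.13 (−0.99, −0.90 and 1.42 after that centring). Of them 0 were higher in Sras mutant 1, 1 in Sras mutant 2 and 2 in scrib by at least 2-fold, and 2 were lower in scrib alone. pirk, which is itself induced by Relish and dampens the pathway, read 6.13 in Sras mutant 1, 6.57 in Sras mutant 2 and 8.15 in scrib, against 6.55 in Ras and 7.05 in WT control, so that scrib was 1.60 above Ras. PGRP-SB1, a secreted peptidoglycan recognition protein, was at 0.99 and 1.18 for the Sras mutants and 0.93 for scrib. nub, which represses peptide genes in the absence of infection and is also a disc gene, was at 0.82 and 0.88 for the Sras mutants and −2.16 for scrib.

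Among 8 kept genes of the JAK/STAT and stress list, 3 were at least 2-fold above Ras in both Sras arrays (backgrounds 4.04% and 4.96%) and 0 below. They were the ligand genes upd1 (3.61 and 4.10) and upd2 (2.56 and 3.20) and the receptor gene dome (1.10 and 1.10). In scrib upd1 was at 2.15, upd2 at 2.35 and dome at 0.38. The levels of upd2 were 8.25 in Sras mutant 1, 8.89 in Sras mutant 2 and 8.04 in scrib. It was dim in Ras, at 5.69, so its differences from Ras rest on a dim reading. Listericin was dim on the 3 arrays on which both ligand genes were above Ras. The salivary gland, gut, muscle and fat body lists were also lower on these arrays than on Ras. The part of the ligands or of these tissues in the Listericin values was not tested.

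**Figure D5:**
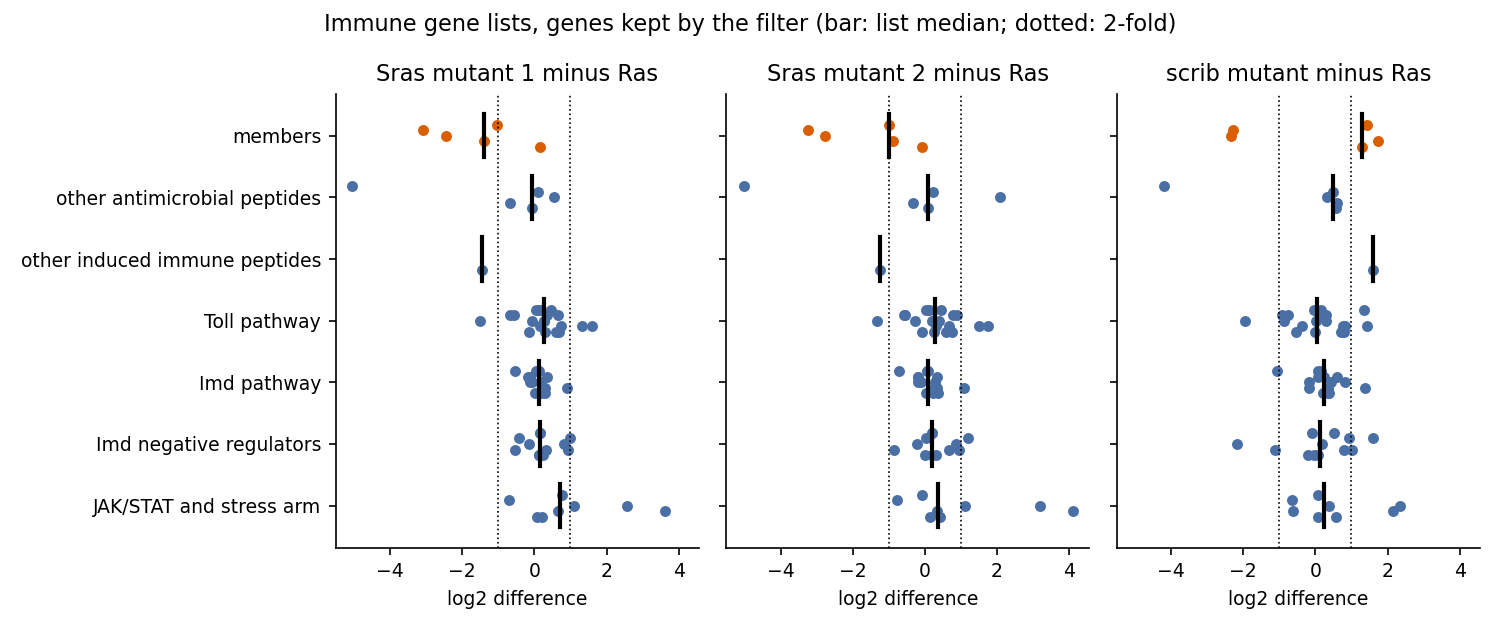
Log2 differences from Ras for both Sras mutants and scrib of the kept genes of each immune list (1 point per gene; vertical bars are list medians and dotted lines mark 2-fold). The medians of the Toll, Imd and Imd regulator lists lay between 0.06 and 0.29 on all 3 arrays. Their single genes ran from −1.96 to 1.75 (Toll), −1.07 to 1.39 (Imd) and −2.16 to 1.60 (Imd regulators). Single members ran from −3.25 to 1.74.

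The kept genes with profiles over the 5 arrays closest to a member were sought by root mean square distance. Profiles were centred on each gene's own mean. Genes with a CG number as symbol, or with CR in it, were left out of the search and may lie closer. Among the genes searched, the closest to Drs were obst-E (0.33), a cuticle chitin-binding gene, D (0.39), the Sox factor Dichaete, and Sp7 (0.40), a serine protease of the melanization cascade. For Mtk they were Dscam4 (0.19), Sox21b (0.21) and D (0.28). Def was closest to AOX3 (0.07), magu (0.09) and Ktch (0.09), each of them highest in scrib. Drsl5 was closest to Eig71Ed (0.30), an ecdysone-induced gene, AANATL2 (0.32) and pncr008:3L (0.33). IM33 was closest to Jon74E (0.41), a Jonah-type serine protease gene, alpha-Est7 (0.44) and Cpr78Cc (0.47), a cuticle gene. Among the members, Mtk and Def (0.51) and Drs and Mtk (0.53) were the closest pairs, and Drsl5 and Def (1.94) the farthest. With 5 points per profile these distances only describe these arrays.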

How the data were processed

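The authors deposited 1 table of log2 values, 18952 probe sets on each of 5 arrays. The sources used here do not give the background correction, normalization or summary of probes. That the scale is log2 was taken from the range, 3.32 to 14.9. There are no scanner intensities or replicates; the number of arrays limits the precision.

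Arrays were quantile normalized, since deposited medians differed by up to 0.153. Of the probe sets, 13646 named 1 gene, 402 several and 4903 none (controls included); 13543 symbols were updated through gene identifiers. The probe set with the highest mean stood for a gene. Genes reaching the 40th percentile on at least 1 array were kept (7850 of 11981). Genes at least 2-fold apart were counted in 10 pairs of arrays, and the counting was tested on simulated data. Members and the 16 lists were chosen with earlier results of these data known. Of 201 list places, 152 were measured. Every measured member is named. Of each list, up to 3 genes with the highest and 3 with the lowest smaller Sras difference were named, and up to 2 each way in scrib. Paralogs of members were named too. So were the 3 nearest profiles per kept member, leaving out symbols that are a CG number or contain CR. Rel was named after its values were seen. Alternatives are listed at the end. Python 3.11.15, NumPy 2.4.6, pandas 2.3.3 and Matplotlib 3.10.9 were used.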

Additional observations from a re-analysis of the deposited data

Results flagged for a closer look

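Drs was lower than in Ras in the Sras tumors and higher than in Ras in the scrib tumors. The differences were −1.39 in Sras mutant 1, where Drs was dim, −0.88 in Sras mutant 2 and 1.74 in scrib. Mtk differed by −1.04, −0.99 and 1.43 in the same order, but it was dim in Ras and in both Sras arrays, so only the scrib difference has an informative direction. All 3 differences share the Ras array, and the difference between the tumor types was not tested, since each group has 1 array.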

How the results depend on the processing

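No member at least 2-fold apart changed direction under any scaling (values as deposited, median centring, centring on eye-antennal disc genes) or when the probe sets of a gene were averaged. No paired analysis was possible because each group has 1 array. With dim values raised to the filter value, an alternative chosen after seeing the data, 2 members were below Ras in Sras mutant 1 and 1 above WT control in scrib, and the other counts stayed within 1.5 times. Without a filter, all counts of members stayed within 1.5 times. As deposited, Sras mutant 2 had 4 members below Ras, and scrib had 1 above WT control; median centring also gave 1 there. At 1.5-fold, 4 were below Ras in Sras mutant 2 and 2 below WT control in Ras. At 3-fold, 2 were below Ras in Sras mutant 1, and 1 above Ras and 1 above WT control in scrib. The stricter filter (mean at the 50th percentile) leaves IM33 alone. It gave 1 below Ras on each mutant array and 1 below WT control in both Sras arrays; 0 were above Ras or WT control or below WT control in scrib, below WT control in Ras, or below scrib in either Sras array. Centring on the disc genes, which are not neutral, moved the median difference of all genes from Ras to −1.09 (mutant 1), −1.07 (mutant 2) and 1.51 (scrib). Under it 6 members, the dim AttD included, were lower in both Sras arrays than in Ras, WT control or scrib. In scrib, 1 was below Ras and 4 were above WT control. List medians from Ras then were, in the order Sras mutant 1, then mutant 2, then scrib, −1.38, −1.18 and 1.42 (other antimicrobial peptides), −2.61, −2.36 and 2.73 (other induced peptides, 1 gene), −0.90, −0.91 and 1.44 (Toll), −1.02, −1.03 and 1.60 (Imd), −0.99, −0.90 and 1.42 (Imd regulators), and −0.56, −0.74 and 1.69 (JAK/STAT and stress). These are to be read against that shift. In scrib, other antimicrobial peptides had a median of 0 as deposited and 0.13 after median centring, and BomS6 was at 1.31 as deposited. Depth is unknown on arrays, and levels under the filter value give bounds only.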
